A study of Mus musculus with 12 samples.

Results

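The 9 genes described here are outputs of the circadian clock in liver: the transcription factors Dbp, Tef, Hlf, Nfil3, Bhlhe40, Bhlhe41 and Rora, and the rhythmic enzyme genes Usp2 and Upp2. They are 9 of the 17097 genes measured. Each gene was represented by the probe set, among those annotated to it alone, with the highest mean log2(intensity + 16) over the 12 arrays. Livers came from Socs2-null adults kept on a C57BL/6 background, which lack a feedback inhibitor of cytokine and growth hormone signalling, and from wildtype C57BL/6 adults. Each genotype was sampled at 0 h, with no operation, and at 24 and 36 h after removal of 2/3 of the liver, an operation that sets off regrowth. Every group held 2 arrays, each hybridised with RNA pooled from 3 animals, so n = 2 pools throughout and the spread between single animals was not measured. All operated groups shared the operation and no group had a sham operation, and the sources used here give neither the hour of harvest nor the sex of the animals. Operation, time since operation and hour of day can therefore not be told apart in a comparison of an operated group with 0 h.

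The clock of liver cells is a transcriptional loop in which CLOCK and ARNTL activate genes through E-boxes, and PER and CRY proteins repress them. Dbp, Tef and Hlf encode the PAR bZIP factors, which are driven by this loop and activate genes that carry D-boxes, among them genes of drug and lipid metabolism. Nfil3 encodes a repressor that binds the same D-boxes. Bhlhe40 and Bhlhe41 encode repressors that bind E-boxes. Rora encodes a nuclear receptor that activates Arntl through response elements shared with the repressors Nr1d1 and Nr1d2. Usp2 encodes a ubiquitin-specific protease, and Upp2 a uridine phosphorylase of liver, and transcripts of both cycle over the day in this organ.

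The promoters of 4 of the genes that changed most are shown as the bases next to their starts. Sites further from the starts were not searched. Windows of 250 bases directly before annotated starts were available for 8 of the 9 genes, 10 windows in all, from RefSeq on GRCm38.p6. Bhlhe40 was the gene without a window. Capitals mark the E-box CACGTG in Tef and the ROR core motif AGGTCA, or its reverse complement TGACCT, in Nfil3 and Upp2. Each sequence runs 5′ to 3′ on the strand of its gene and ends at the base before the start.
Dbp, chr7:45704997-45705246, plus strand: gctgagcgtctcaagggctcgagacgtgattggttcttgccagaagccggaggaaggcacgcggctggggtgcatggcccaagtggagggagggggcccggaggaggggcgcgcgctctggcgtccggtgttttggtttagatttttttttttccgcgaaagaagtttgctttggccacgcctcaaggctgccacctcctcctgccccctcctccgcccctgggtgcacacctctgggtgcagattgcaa
Tef, chr15:81802423-81802672, plus strand: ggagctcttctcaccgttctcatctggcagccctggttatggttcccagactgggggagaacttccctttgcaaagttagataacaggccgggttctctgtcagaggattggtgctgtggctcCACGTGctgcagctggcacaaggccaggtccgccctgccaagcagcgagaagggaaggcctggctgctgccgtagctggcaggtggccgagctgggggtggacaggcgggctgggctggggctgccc
Tef, chr15:81811164-81811413, plus strand: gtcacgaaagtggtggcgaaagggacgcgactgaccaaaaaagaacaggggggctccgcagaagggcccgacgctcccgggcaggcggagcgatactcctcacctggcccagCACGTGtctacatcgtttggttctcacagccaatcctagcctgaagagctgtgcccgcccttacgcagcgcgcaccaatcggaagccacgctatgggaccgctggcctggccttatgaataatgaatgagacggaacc
Nfil3, chr13:52981040-52981289, minus strand: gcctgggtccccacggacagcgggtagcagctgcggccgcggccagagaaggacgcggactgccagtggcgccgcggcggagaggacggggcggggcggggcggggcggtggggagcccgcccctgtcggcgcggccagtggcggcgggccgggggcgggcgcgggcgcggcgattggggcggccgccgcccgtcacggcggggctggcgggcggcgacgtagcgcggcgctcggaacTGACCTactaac
Upp2, chr2:58754934-58755183, plus strand: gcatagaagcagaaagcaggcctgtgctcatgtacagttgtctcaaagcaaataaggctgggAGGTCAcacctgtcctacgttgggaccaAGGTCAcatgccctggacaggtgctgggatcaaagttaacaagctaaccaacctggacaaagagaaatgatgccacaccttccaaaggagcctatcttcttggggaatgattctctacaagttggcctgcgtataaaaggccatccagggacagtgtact
The Tef windows belong to separate annotated starts, with an E-box that began 127 bases before one start and 138 bases before the other. The E-box also lay in the Bhlhe41 window, 153 bases before its start. On either strand CACGTG, which is its own reverse complement, was found in 6.02% of the 32851 RefSeq windows of the same length. The ROR core motif began 12 bases before the start of Nfil3, and 188 and 160 bases before the second start of Upp2. It was found in 14% of all windows. The search took its letters alone, without the bases around them, so a match is not particular to ROR factors. The window of the first Upp2 start held no match to any of the motifs and is not printed. The D-box TTATGTAA, or its reverse complement TTACATAA, was in 0.819% of all windows and in 0 of the 10 windows of these genes. No 2 of the matches overlapped. A match here is a description of letters in a window and not a measured binding site.

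Median intensities of the arrays lay between 43.5 and 52.3, and arrays of the same group correlated at r = 0.985 to 0.995 over genes. Each array's background level was taken from 17 tag controls, probe sets with no target in mouse RNA, and the brightest of them lay between 33.0 and 45.0 over the arrays. Socs2 was under that level in all 6 Socs2-null pools, at 23.2 to 29.5, against 116 to 546 in the 6 wildtype pools. The 6 hepatocyte markers were above background in every group, with summed intensities of 73239 to 73702 at 0 h and 65598 to 72592 after the operation. Among them Fga read 9831 to 11964 after it, against 8040 to 8642 at 0 h, and Ttr 11092 to 12273, against 14274 to 14594. Other markers moved with time too. The erythroid markers Hba-a1 and Alas2, the 2 of 5 that were measured, summed to 2631 to 4300 after the operation, against 8108 to 8353 at 0 h. For the adipose list, with 2 of 3 markers measured, the sum was 856 to 1889 after it, against 342 to 428 at 0 h, with Adipoq under background in every group and Fabp4 above it. The neutrophil list, with 4 of 5 markers measured, summed to 1719 in 1 Socs2-null pool at 24 h. The sum was 303 to 486 in the other operated pools and 223 to 269 at 0 h. In the pool at 1719, S100a8 read 655 and S100a9 953, while Elane read 82.3 and Mpo 29.5, under background. Elane read 71.5 to 97.0 after the operation, against 97.3 to 121 at 0 h, and Mpo 28.6 to 40.2, against 40.1 to 48.4. The macrophage marker Marco read 685 to 1650 after the operation, against 89.8 to 117 at 0 h. Cd68 rose as well, to 273 to 389 after it, against 154 to 185 at 0 h. Other macrophage markers fell: Clec4f read 357 to 447 after it, against 690 to 760 at 0 h, and Csf1r 122 to 137, against 173 to 199. Of the 9 macrophage markers, 6 in wildtype and 7 in Socs2-null liver had a negative log2 change at 24 h and at 36 h. The whole list summed to 4159 to 5999 over all pools, a sum in which the rises of Marco and Cd68 and the falls of others offset. The 6 stellate markers, of which Col1a2 was under background in every group, summed to 860 to 961 in Socs2-null pools at 36 h, against 1275 to 1356 in wildtype pools, and to 896 to 1110 at 24 h, against 1369 to 1577 at 0 h, over both genotypes. Within the stellate sum at 36 h, Col3a1 read 225 and 347 in Socs2-null pools, against 712 and 822 in wildtype pools. By log2 difference 4 of the 6 stellate markers were higher in Socs2-null liver there and 2 lower. The 6 sinusoidal endothelial markers, all above background, summed to 1531 to 1867 in Socs2-null pools at 36 h, against 1283 to 1304 in wildtype pools. The mean log2 level of the 18 hybridization controls, which report on the array and not on the liver, fell with time: the Socs2-null arrays averaged 9.87, 9.47 and 9.03 at the 3 times in order, and the wildtype arrays 9.92, 9.71 and 9.05. The part of these shifts in the results below was not tested, except that the control level entered one alternative fit. In bulk liver, fewer cells that express a gene and less RNA per cell cannot be told apart.

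Dbp, the PAR bZIP factor with the strongest daily rhythm in liver, fell in both genotypes after hepatectomy and was lower in Socs2-null liver at 36 h. At 0 h its intensity was 850.3 and 1147 in the Socs2-null pools, against 833 and 1068 in the wildtype pools. At 24 h it was 32.1 and 29.8 in Socs2-null pools, both under background. In wildtype pools it was then 41.7 and 47.2, close to the background of 40.46 and 41.75 on those arrays. At 36 h it was 33.2 and 39.0 in Socs2-null pools, the lower of them under background, against 125 and 234 in wildtype pools. The genotypes overlapped at 0 h and were separate at 24 and 36 h, with Socs2-null lower at both. Over the 6 groups the 0 h levels came first, followed by wildtype at 36 h, wildtype at 24 h and then the Socs2-null groups at 36 and 24 h, whose difference did not pass the test. Group means at 36 h were 36.1 ± 4.12 in Socs2-null and 179.7 ± 77.4 in wildtype liver (SD, n = 2 pools each). The log2 difference there was -1.85 ± 0.24 (SE), 3.61-fold lower, with a limma adjusted p of 0.0333. This and all other fold changes are on the log2(intensity + 16) scale, which understates changes of dim genes, and p-values were adjusted over all 17097 genes. The stellate marker sum, mainly through Col3a1, and the endothelial marker sum also separated the genotypes at 36 h, as given above. Their part in this difference was not tested. The Dbp call held under 12 of 25 alternatives. It was lost with a pseudocount of 64 (log2 difference -1.25, adjusted p = 0.115), with plain eBayes (0.0536), with array weights (0.0719) and with only the arrays compared (0.253). It was also lost, at an adjusted p of 0.0680 to 0.293, when any of 9 arrays was left out. The highest value, 0.293, came without Socs2-null replicate 1 at 36 h. The others of the 9 were Socs2-null replicate 2 and wildtype replicate 2 at 36 h, the 2 wildtype arrays at 24 h and every array at 0 h.

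Against 0 h, Dbp at 24 h was lower by a log2 change of -4.42 ± 0.24 in Socs2-null liver (adjusted p = 4.05e-06) and of -3.99 ± 0.24 in wildtype liver (adjusted p = 6.1e-06). The Socs2-null level at 24 h being under background, the fall there was at least 27.1-fold, measured on log2 intensity against the background level. At 36 h the change from 0 h was -4.27 ± 0.24 in Socs2-null and -2.35 ± 0.24 in wildtype liver, with limma adjusted p of 3.9e-06 and 0.000239. Between 24 and 36 h Dbp rose 3.11-fold in wildtype liver, from a level close to background, by 1.64 ± 0.24 on the log2 scale (adjusted p = 0.0265). The same step in Socs2-null liver was 0.15 ± 0.24 (adjusted p = 0.923), with both groups at or near background. Without 1 of 7 arrays the wildtype step was no longer past the threshold, at an adjusted p of 0.0504 to 0.149. Those arrays were wildtype replicate 2 at 36 h (0.0654), the 2 wildtype ones at 24 h (0.149 without replicate 2) and every array at 0 h.

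**Figure D1:**
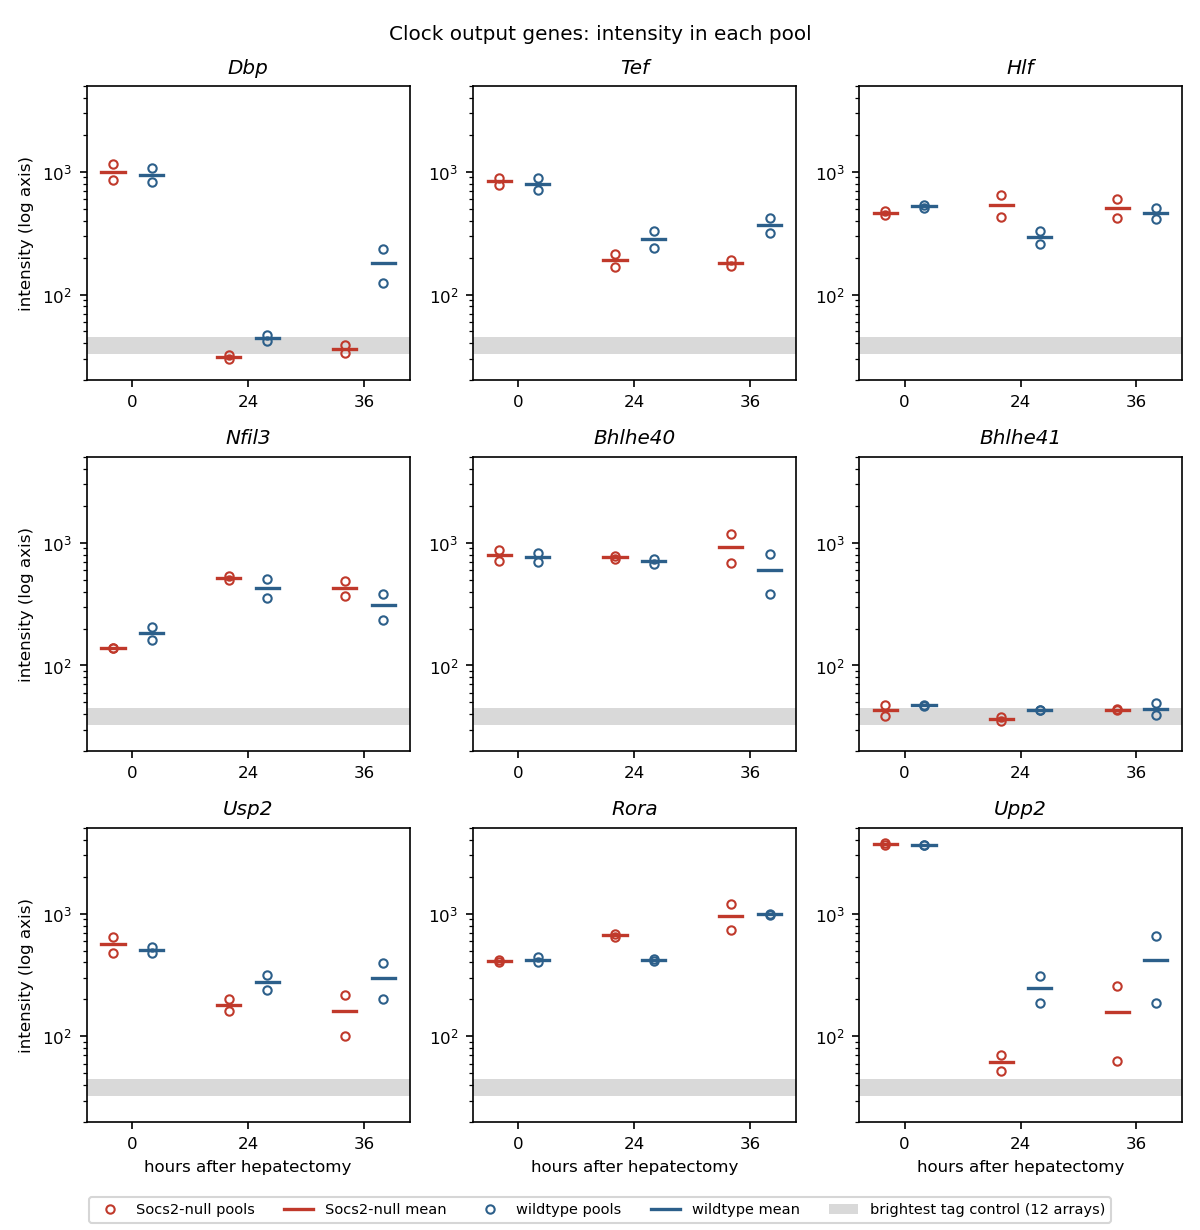
Intensity of each of the 9 genes in each pool (circles, log axis) and the group means (bars), with Socs2-null left of wildtype at 0, 24 and 36 h; the grey band spans the brightest tag control of the 12 arrays, 33.0 to 45.0. Dbp and Upp2 had the widest spans, Bhlhe41 stayed at the band, and Dbp at 36 h was at 33.2 and 39.0 in Socs2-null pools and at 125 and 234 in wildtype pools.

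Tef, the second PAR bZIP factor, also fell in both genotypes. At 0 h it stood at 783 and 889 in Socs2-null pools, against 710.3 and 884 in wildtype pools. At 24 h it stood at 168 and 216 in Socs2-null pools, against 237 and 326 in wildtype pools. At 36 h it stood at 169 and 192 in Socs2-null pools, against 316 and 422 in wildtype pools. Every operated pool was below every 0 h pool, and at both later times both Socs2-null pools were below both wildtype pools. The 24 h level was 4.11-fold lower than at 0 h in Socs2-null liver, a log2 change of -2.04 ± 0.20 (adjusted p = 9.58e-05), and the wildtype change was -1.46 ± 0.20 (adjusted p = 0.000922). The 36 h changes from 0 h were -2.11 ± 0.20 in Socs2-null (adjusted p = 8.26e-05) and -1.08 ± 0.20 in wildtype liver (adjusted p = 0.00484). Without wildtype replicate 2 at 0 h the wildtype change at 36 h had an adjusted p of 0.0681. The genotype difference of -0.51 ± 0.20 at 24 h did not pass the limma test, with an adjusted p of 0.537, nor did the 36 h one of -0.96 ± 0.20 (adjusted p = 0.294). A further Tef probe set read 32.3 to 51.6, close to background, and adds no measurement.

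Hlf, the PAR bZIP factor with the shallowest daily rhythm in liver, fell in wildtype liver at 24 h. At 0 h it was 448 and 481 in Socs2-null pools, against 512 and 533 in wildtype pools. Socs2-null pools held 644 and 425 at 24 h, against 331 and 259 in wildtype pools. Socs2-null pools held 419.7 and 596 at 36 h, against 506 and 409.9 in wildtype pools. Socs2-null was below wildtype at 0 h, above it at 24 h and overlapped it at 36 h. The wildtype level at 24 h was 1.74-fold below 0 h (log2 change -0.80 ± 0.22, limma adjusted p = 0.0204), a call lost without either wildtype array at 0 h (0.0885 and 0.112) or wildtype replicate 2 at 24 h (0.130). The same change in Socs2-null liver was 0.17 ± 0.22 (adjusted p = 0.604), and the difference between the genotypes at 24 h was 0.80 ± 0.22 (adjusted p = 0.438). A second Hlf probe set was also lower at 24 h in wildtype liver, by -0.76 ± 0.16 (adjusted p = 0.00831, over all probe sets). In Socs2-null liver the probe sets parted at 24 h: the second read 219 and 155, against 243 and 228 at 0 h, while the brightest one moved by 0.17. They parted again at 36 h. The second was then lower than at 0 h in Socs2-null (-0.65 ± 0.16, adjusted p = 0.0184) and wildtype liver (-0.68 ± 0.16, adjusted p = 0.0205), while the brightest one moved by 0.11 and -0.19 with no call.

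Nfil3, the repressor at D-boxes, rose after hepatectomy while Dbp and Tef fell. At 0 h both Socs2-null pools had 139, against 206 and 162 in the wildtype pools. At 24 h Socs2-null pools had 500.4 and 539, against 507 and 351 in wildtype pools. The 36 h values were 489 and 367 in the Socs2-null pools, against 382 and 234 in the wildtype pools. All operated pools were above all 0 h pools, and the genotypes were separate at 0 h and overlapped at both later times. In Socs2-null liver the rise was 3.46-fold at 24 h (log2 change 1.79 ± 0.23, adjusted p = 0.000601) and 1.51 ± 0.23 on the log2 scale at 36 h (adjusted p = 0.00153). In wildtype liver it was 2.20-fold at 24 h (1.14 ± 0.23, adjusted p = 0.00638), and the 36 h change of 0.67 ± 0.23 did not pass (adjusted p = 0.0789). The wildtype call at 24 h was lost without wildtype replicate 2 at 0 h (0.0658) or wildtype replicate 1 at 24 h (0.0577), while the later wildtype change passed without wildtype replicate 2 at 36 h (0.0354). Genotype differences were -0.36 ± 0.23, 0.29 ± 0.23 and 0.48 ± 0.23 at 0, 24 and 36 h, none past the limma threshold.

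Bhlhe40 and Bhlhe41, the repressors at E-boxes, were not called in any comparison. For Bhlhe40 the intensities at 0 h were 716 and 866 in Socs2-null pools, against 699 and 826 in wildtype pools. At 24 h they were 777 and 742 in Socs2-null pools, against 742 and 674 in wildtype pools. At 36 h they were 1183 and 679 in Socs2-null pools, against 383 and 815 in wildtype pools. The pools of each genotype at 36 h lay further apart from each other than any earlier pair, and the genotypes overlapped there. The Bhlhe40 difference at 36 h was 0.67 ± 0.32 on the log2 scale, with a limma adjusted p of 0.789. Bhlhe41 read 35.2 to 49.6 over the 12 arrays, under background on 1 of them, and its second probe set was under background on all 12. All 12 Bhlhe41 values were close to background.

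Usp2, a protease gene whose transcript follows the clock closely in liver, fell in Socs2-null liver at both times. At 0 h Usp2 read 475 and 651 in Socs2-null pools, against 478 and 535 in wildtype pools. At 24 h Usp2 read 202 and 162 in Socs2-null pools, against 240.2 and 315 in wildtype pools. At 36 h Usp2 read 102 and 218 in Socs2-null pools, against 202 and 395 in wildtype pools. Every operated pool was below every 0 h pool, and the genotypes were separate at 24 h and overlapped at 36 h. In Socs2-null liver the 24 h level was 2.91-fold lower than at 0 h (log2 change -1.54 ± 0.35, adjusted p = 0.0114) and the 36 h level 3.45-fold lower (-1.79 ± 0.35, adjusted p = 0.00639). Both calls were lost without Socs2-null replicate 2 at 0 h (0.0798 for the earlier and 0.0537 for the later), and the earlier one also without Socs2-null replicate 2 at 24 h (0.0718). The wildtype change of -0.84 ± 0.35 at 24 h had an adjusted p of 0.104, and that of -0.80 ± 0.35 at 36 h one of 0.156. Without Socs2-null replicate 2 at 36 h the wildtype change at 24 h passed, at 0.0499. A second Usp2 probe set, with a smaller spread between pools, was lower in wildtype liver at 24 h (-0.85 ± 0.23, limma adjusted p = 0.0226 over all probe sets) and at 36 h (-0.92 ± 0.23, adjusted p = 0.0233). It was lower in Socs2-null liver too, by -1.54 ± 0.23 at 24 h (adjusted p = 0.000988).

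Upp2, which cleaves uridine, had the widest span of the 9 genes. At 0 h its pools were close together, at 3648 and 3738 in Socs2-null liver and 3645 and 3653 in wildtype liver. At 24 h it was at 71.2 and 52.1 in Socs2-null pools, against 189 and 308 in wildtype pools. At 36 h it was at 255 and 63.5 in Socs2-null pools, against 655 and 188 in wildtype pools. Every operated pool was far below every 0 h pool, the genotypes were separate at 24 h with Socs2-null lower, and at 36 h they overlapped with a wide spread inside each. Upp2 at 24 h was 48.1-fold lower than at 0 h in Socs2-null liver (log2 change -5.59 ± 0.65, adjusted p = 0.00104) and 14.2-fold lower in wildtype liver (-3.83 ± 0.65, adjusted p = 0.00561). The 36 h changes were -4.66 ± 0.65 in Socs2-null (adjusted p = 0.00241) and -3.31 ± 0.65 in wildtype liver (adjusted p = 0.0143). The wildtype call at 36 h was lost without either wildtype array at 0 h (0.0782 and 0.0874) or wildtype replicate 2 at 36 h (0.0618). Neither genotype difference passed the limma test, with an adjusted p of 0.559 for -1.74 ± 0.65 at 24 h and of 0.797 for -1.33 ± 0.65 at 36 h. Both further Upp2 probe sets fell as well: one read 55.1 to 575 after the operation, against 3358 to 3884 at 0 h. The other read 12.6 to 29.0, under background on all 8 arrays, against 127 to 145 at 0 h.

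Rora, the activator of Arntl, rose in both genotypes by 36 h on its brightest probe set, and in Socs2-null liver already at 24 h. At 0 h that probe set read 404 and 418 in Socs2-null pools, against 439.8 and 400.3 in wildtype pools. At 24 h it read 687 and 641 in Socs2-null pools, against 413 and 425 in wildtype pools. At 36 h it read 731 and 1189 in Socs2-null pools, against 991 and 984 in wildtype pools. Wildtype stayed at its 0 h level at 24 h, when both Socs2-null pools were above it, and at 36 h the genotypes overlapped. In Socs2-null liver the change from 0 h was 0.67 ± 0.18 at the earlier time (limma adjusted p = 0.022) and 1.15 ± 0.18 at the later one (adjusted p = 0.00175). In wildtype liver the earlier change was -0.00 ± 0.18 (adjusted p = 0.995), the later one 1.20 ± 0.18 (adjusted p = 0.00205), and the step between 24 and 36 h 1.21 ± 0.18 (adjusted p = 0.0283). The Socs2-null call at 24 h was lost without any 1 of the Socs2-null arrays at 0 h (0.105 and 0.0897) or 24 h (0.0745 and 0.0523). The wildtype call between 24 and 36 h was lost without any 1 of 8 arrays, the 4 wildtype arrays of those times and every array at 0 h, at 0.0726 to 0.155. The genotype difference at 24 h was 0.64 ± 0.18 (adjusted p = 0.443).

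The other Rora probe sets did not repeat all of these calls. A second one had 505 and 492 at 24 h in Socs2-null pools against 418 and 321 in wildtype pools, and 509 and 714 at 36 h against 662 and 610.4. Its group means were highest at 36 h too, but its step between 24 and 36 h in wildtype liver, 0.77 ± 0.17, missed the threshold (adjusted p = 0.0532 over all probe sets). The third was highest at 24 h, at 496 and 536 in Socs2-null pools and 555 and 548 in wildtype pools, against 414 and 373 in Socs2-null and 296 and 449 in wildtype pools at 0 h. Its 24 h change passed in wildtype liver (0.58 ± 0.17, adjusted p = 0.0336) and not in Socs2-null liver (0.38 ± 0.17, adjusted p = 0.146). A pair of further Rora probe sets were under background on 6 and 10 of the 12 arrays. When the gene was represented by the mean of its probe sets, the Rora calls in wildtype at 36 h (adjusted p = 0.0739), in wildtype between 24 and 36 h (0.172) and in Socs2-null at 24 h (0.105) were lost.

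**Figure D2:**
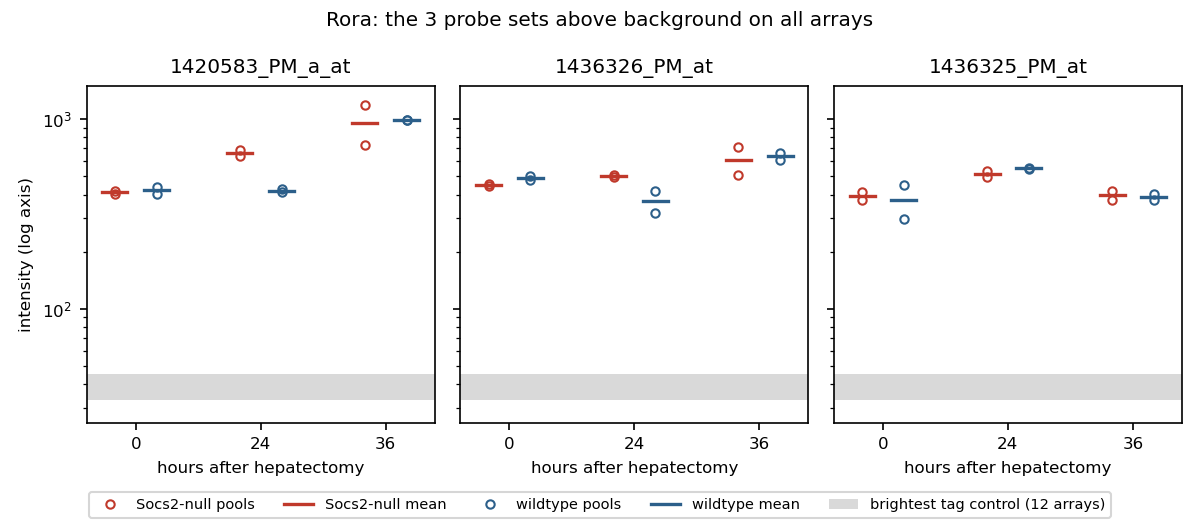
Intensity (log axis) of the 3 Rora probe sets above background on all 12 arrays, by pool (circles) and group mean (bars), with Socs2-null left of wildtype at 0, 24 and 36 h. The first is highest at 36 h, at 731 to 1189, while the third is highest at 24 h, at 496 to 555.

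Read as a group against 0 h, Dbp, Tef and Upp2 were lower and Nfil3 higher in every operated group but 1: the wildtype change of Nfil3 at 36 h was not called. At 24 h in Socs2-null liver 6 of the 9 genes were called, Nfil3 and Rora up and Dbp, Tef, Usp2 and Upp2 down, beside 24.2% of all genes (10.8% up and 13.5% down). In wildtype liver at 24 h 5 of 9 were called, Nfil3 up and Dbp, Tef, Hlf and Upp2 down, beside 25.8% of all genes (10.2% up and 15.6% down). The same 6 genes were called in Socs2-null liver at 36 h in the same directions, beside 20% of all genes (9.84% up and 10.1% down). In wildtype liver at 36 h 4 of 9 were called, Rora up and Dbp, Tef and Upp2 down, beside 15.2% of all genes (5.69% up and 9.5% down). The median log2 change of the 9 genes was -0.16 in Socs2-null and -0.80 in wildtype liver at 24 h, and 0.02 and -0.43 at 36 h, against medians between -0.08 and -0.03 over all genes. Between 24 and 36 h 0 of 9 were called in Socs2-null liver, where limma called 0.00585% of all genes and Rora was the 1 gene at an unadjusted p under 0.05. In wildtype liver 2 of 9 were called between these times, Dbp and Rora, both up, beside 0.24% of all genes (0.216% up and 0.0234% down). The shares of all genes moved with single arrays, most without an array at 0 h of the same genotype. Without wildtype replicate 1 at 0 h 1476 in place of 4417 genes were called in wildtype liver at 24 h and 733 in place of 2597 at 36 h, and without wildtype replicate 2 at 0 h 1359 and 581. Without wildtype replicate 1 or 2 at 24 h the 24 h count was 2082 or 2358, and without wildtype replicate 2 at 36 h the 36 h count was 1044. In Socs2-null liver 2236 in place of 4146 were called at 24 h and 1727 in place of 3415 at 36 h without Socs2-null replicate 1 at 0 h, and 2014 and 1563 without replicate 2, and the 36 h count was 2133 without Socs2-null replicate 1 at 36 h. Between 24 and 36 h in wildtype liver the 41 genes called became 1 to 180 without 1 array, with 1 without either wildtype array at 0 h and 178 and 180 without either Socs2-null array at 24 h. The 2 genotypes were not compared through these counts, since the difference in change was tested directly.

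**Figure D3:**
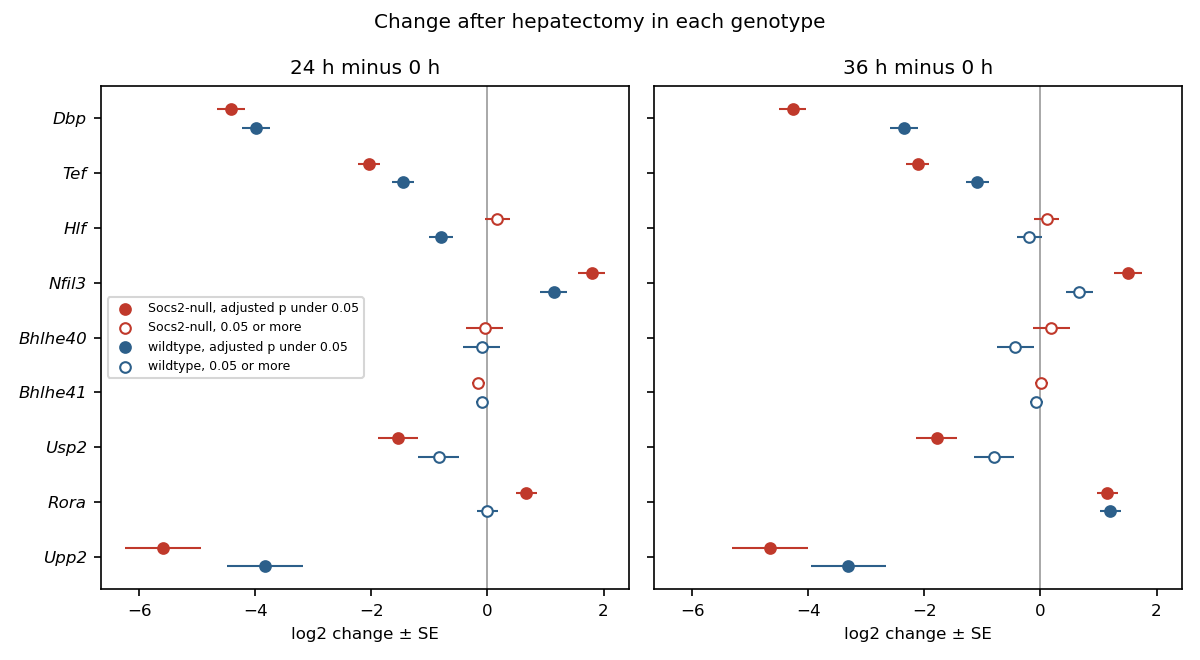
Log2 change ± SE from 0 h for each of the 9 genes at 24 h (left) and 36 h (right), with Socs2-null drawn above wildtype in each row and filled points for an adjusted p under 0.05. Upp2 at 24 h lies at -5.59 in Socs2-null and -3.83 in wildtype liver, and Nfil3 and Rora are the genes called on the positive side.

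Between genotypes Dbp at 36 h was the single call. At 0 h 0 of 9 genes passed the limma test, 0 had an unadjusted p under 0.05, and 0% of all genes were called. The pools of the genotypes were separate there for Hlf and Nfil3, 2 of 9, as for 41.8% of all genes. The widest difference among the 9 was that of Nfil3, -0.36 ± 0.23, and those of Dbp and Tef were both 0.07. At 24 h 0 of 9 passed, beside 0.0117% of all genes, and Tef, Hlf, Rora and Upp2 had an unadjusted p under 0.05. The Socs2-null pools at 24 h were both below the wildtype pools for Dbp, Tef, Bhlhe41, Usp2 and Upp2 and both above for Hlf, Bhlhe40 and Rora, so that 8 of 9 were separate, as were 34.2% of all genes. The Dbp difference at 24 h did not pass (limma adjusted p = 0.715), with Socs2-null liver under background and wildtype liver close to it. Its bound against background, 1.22-fold lower, rests on background levels that vary between arrays and is not a sure minimum. At 36 h 1 of 9 passed, Dbp, beside 0.0234% of all genes (4 genes, and 1 to 16 without 1 array, with 16 without wildtype replicate 1 at 36 h), and Tef and Usp2 also had an unadjusted p under 0.05. The pools at 36 h were separate for Dbp and Tef, 2 of 9, as for 32.9% of all genes. Usp2 differed by -0.85 ± 0.35 (adjusted p = 0.743) with overlapping pools. Averaged over the 3 times 0 of 9 passed, beside 0.0292% of all genes. The averaged differences were -0.72 ± 0.14 for Dbp (adjusted p = 0.143), -0.46 ± 0.11 for Tef (adjusted p = 0.229) and -1.02 ± 0.38 for Upp2 (adjusted p = 0.43), the 3 genes with an unadjusted p under 0.05. Without wildtype replicate 1 at 36 h the averaged Dbp difference passed, at 0.0298. The hybridization controls at 24 h averaged 0.24 lower on the log2 scale in the Socs2-null arrays.

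**Figure D4:**
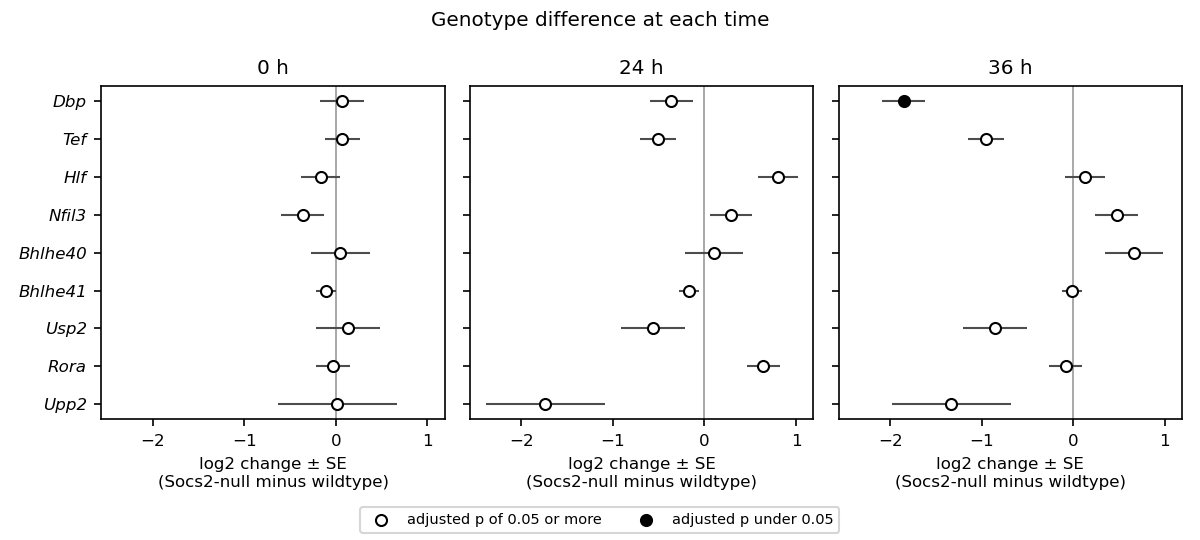
Log2 difference ± SE, Socs2-null minus wildtype, for each of the 9 genes at 0, 24 and 36 h, with filled points for an adjusted p under 0.05. Points lie near 0 at 0 h, and Dbp at 36 h, at -1.85, is the single filled point.

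Whether the change after hepatectomy itself differed between genotypes was tested as an interaction. For the 24 h change 0 of 9 genes passed, beside 0% of all genes. The 2 genes at an unadjusted p under 0.05 were Hlf, with a difference in log2 change of 0.97 ± 0.30, and Rora, with 0.67 ± 0.26. The widest difference, -1.76 ± 0.92 for Upp2, did not reach that level. The second Hlf probe set was lower at 24 h than at 0 h in both genotypes, as given above. For the 36 h change 0 of 9 passed, beside 0.00585% of all genes. Dbp had the widest difference there, -1.92 ± 0.34 (limma adjusted p = 0.566). Dbp, Tef (-1.03 ± 0.28) and Nfil3 (0.84 ± 0.33) were the genes at an unadjusted p under 0.05. Upp2 (-1.35 ± 0.92) and Usp2 (-0.99 ± 0.50) did not reach that level. Without wildtype replicate 1 at 36 h the Dbp difference was -2.33 and passed (adjusted p = 0.0382). The step between 24 and 36 h, tested after the data had been seen, differed by -1.49 ± 0.34 for Dbp, -0.72 ± 0.26 for Rora and -0.67 ± 0.30 for Hlf, each with an adjusted p of 0.896. The Dbp values at 24 h in Socs2-null liver are at background. Those at 36 h in Socs2-null liver and at 24 h in wildtype liver lie at or close to it. The fitted differences in change that use any of them are therefore not exact sizes.

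The span over the 6 group means, the highest minus the lowest on the log2 scale, was 5.59 for Upp2, and 0.0117% of all genes had a span at least as wide. The fitted span of Dbp, 4.42, ends at Socs2-null liver at 24 h, which was under background, and is therefore not an exact size. Tef spanned 2.11 (0.755% of genes), Nfil3 and Usp2 both 1.79 (1.37% and 1.38%) and Rora 1.23 (4.53%). Hlf at 0.80 (14.1%), Bhlhe40 at 0.67 (20.9%) and Bhlhe41 at 0.26 (75.4%) were narrower. Likeness of pattern was measured as the root mean square difference in log2(intensity + 16) between genes after each was centred over the 12 arrays, among 12601 candidate genes. Nearest to Dbp were Abca8a (0.59), Hsd3b2 (0.67) and Hsd3b5 (0.70). Nearest to Tef was the clock repressor gene Per3 (0.20), followed by Ppargc1b (0.22) and Abcg8 (0.25). Nearest to Upp2 were 3 hydroxysteroid dehydrogenase genes, Hsd3b6 (0.92), Hsd3b5 (0.97) and Hsd3b2 (1.00). For Nfil3 the nearest were Cd9 (0.21), Fkbp11 (0.23) and Slc30a10 (0.23), for Usp2 Foxo3 (0.29), Marveld1 (0.29) and Elovl2 (0.30), and for Rora Atp6v1a (0.22), Eif3c (0.22) and Alcam (0.23).

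Of the core clock list, 12 genes were measured. In Socs2-null liver 4 were up and 3 down at 24 h, with Arntl at a log2 change of 2.54, Cry1 at 2.02, Npas2 at 1.43 and Clock at 1.03, and with Nr1d2 at -2.37, Per3 at -1.73 and Ciart at -1.55. Npas2 was under background in Socs2-null liver at 0 h and Per3 at 24 h, so these changes are not exact sizes. Arntl was under background in 1 pool of each genotype at 0 h. Ciart read 17.15 and 65.05 in Socs2-null pools at 24 h, the lower of them under background, so its change is not an exact size either. In wildtype liver at 24 h 3 were up and 2 down, with Cry1 at 1.77, Arntl at 1.74 and Clock at 1.12, and with Nr1d2 at -1.86 and Per3 at -1.47. Of all genes, 24.2% were called in Socs2-null and 25.8% in wildtype liver at that time. At 36 h against 0 h the counts were 4 up and 2 down in Socs2-null, beside 20% of all genes, and 3 up and 1 down in wildtype liver, beside 15.2%. Between genotypes 1 of the 12 was called, Cry1 at 36 h, beside 0.0234% of all genes at that time. Cry1 then read 234 and 279 in Socs2-null pools against 110 and 118 in wildtype pools (1.07 ± 0.13, limma adjusted p = 0.027). Nr1d2, whose protein competes with RORA for the same elements, read 210.5 and 194 in Socs2-null pools at 36 h against 601 and 614 in wildtype pools, with no call. The pools were also separate at 36 h, with no call, for Npas2, Arntl and Cry2, with Socs2-null higher, and for Per3 and Csnk1d, with Socs2-null lower. Of all genes, 32.9% had separate pools there.

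Of 8 liver genes known to depend on the PAR bZIP factors 7 were measured, Por being the one not analysed here, and 0 were called between genotypes at any time. Of all genes, 0%, 0.0117% and 0.0234% were called between genotypes at 0, 24 and 36 h, so a count of 0 says little about the list. At 24 h 1 was up and 2 down in Socs2-null liver, beside the 24.2% of all genes called there: Cyp2b10 at 3.54, and Ppara at -1.05 and Cyp3a11 at -0.36. In wildtype liver 1 was up and 1 down at that time, beside 25.8% of all genes, Cyp2b10 at 3.46 and Ppara at -0.91. The 36 h counts were 1 up and 2 down in each genotype, beside 20% of all genes in Socs2-null and 15.2% in wildtype liver, with Cyp2b10 at 3.90 in Socs2-null and 4.05 in wildtype liver. The genes down were Ppara (-0.88) and Cyp3a11 (-0.33) in Socs2-null liver and Cyp7a1 (-3.37), the first enzyme of bile acid synthesis, and Cyp2a5 (-1.48) in wildtype liver. Of 8 other rhythmic liver genes 7 were measured, with 0 called between genotypes at any time, beside the same small shares of all genes. In Socs2-null liver 2 of these were up and 2 down at 24 h, Gys2 and Noct (-1.05) being those down, and in wildtype liver 2 were up and 1 down, with Insig2 at 2.08, Tspan4 at 0.77 and Gys2 at -1.45, beside the same 24.2% and 25.8% of all genes.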

How the data were processed

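Liver RNA from 6 groups of 2 pools was measured on 12 Affymetrix-type arrays of 45141 probe sets; per the labels' protocols, 10 micrograms of RNA pooled from 3 animals was made into biotinylated cRNA for each. The values are the authors' deposited intensity of each probe set on a linear scale, from 1 to 24717; background correction, summarization, normalization and genome build were not stated in any source used here, and no scaling was added. GEO's platform annotation gave 28898 probe sets a single gene, 551 several and 15588 none; 104 are controls. For each of 17097 genes the probe set with the highest mean log2(intensity + 16) was kept. A model of 6 group means with 6 residual degrees of freedom was fitted with limma 3.58.1 (statmod 1.5.0, R 4.3.3; lmFit, eBayes with trend and robust), two-sided, p-values adjusted over all genes by Benjamini-Hochberg in each of 12 comparisons, and a threshold of 0.05. Further probe sets of a gene were tested in a fit of all probe sets that are not controls. A gene under the brightest of 17 tag controls on every array of a group has a bound there ("at least"), computed without a pseudocount. Each group's 2 pools are labelled biological replicates; the number of arrays limits precision. The labels do not say that equal replicate numbers mark a shared animal or batch. All 9 genes were described in every comparison; the genes and lists were chosen with earlier results of these data known. Nearest genes were the 3 closest for members whose group means span at least 1 on the log2 scale, which leaves out Hlf, Bhlhe40 and Bhlhe41. Promoter windows are RefSeq's. Figures were drawn with matplotlib 3.10.9 on Python 3.11.15.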

Additional observations from a re-analysis of the deposited data

How the results depend on the processing

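Each of the 9 genes was recomputed in 12 comparisons under 25 alternatives, 13 settings and 12 fits with 1 array left out; 57 values lost a call and 12 gained one. Of the 24 calls 0 changed sign under any alternative; of the 84 results not called 35 changed sign under at least 1, 69 values in all, among them Usp2 in wildtype between 24 and 36 h (-1.04 to 0.50) and Dbp between genotypes at 0 h (-0.15 to 0.28). At 36 h between genotypes, 1 gene passed as reported, 0 with a pseudocount of 64, without trend and robust moderation, with array weights or with only the arrays compared, and 0 to 1 without 1 array. With the replicate number as a block 2 passed there, Dbp and Tef (0.0435 for Tef). The block also added calls of Nfil3 in wildtype at 36 h (0.0402) and Usp2 in wildtype at 24 h (0.0458). The deviations of replicate 1 from its group mean were correlated between groups at r = -0.499 to 0.347 over 15 pairs of groups, 3 of them over 0.1. The labels do not say that the numbers pair the pools, and these correlations cannot exclude a batch shared by some groups. Averaged over times 0 to 1 passed without 1 array, and for the difference in the 36 h change 0 to 1. In wildtype liver 3 to 6 passed at 24 h and 2 to 4 at 36 h without 1 array, and in Socs2-null liver 4 to 6 and 5 to 6. With the hybridization control level as a covariate 1 passed in wildtype at 36 h, and 0 between 24 and 36 h; that level fell with time, so the covariate shares the time differences. Between 24 and 36 h in wildtype liver 1 passed with a pseudocount of 64, with the mean of probe sets, or with only the arrays compared, and 0 to 2 without 1 array. With that covariate the 4 Rora calls (0.242 to 0.398), the Upp2 calls at 36 h (0.230 in Socs2-null and 0.501 in wildtype) and the wildtype calls of Tef at 36 h (0.156) and of Dbp between 24 and 36 h (0.358) were lost. Of 24 calls 11 held under all 25 alternatives: those of Dbp, Tef and Upp2 from 0 h in both genotypes, except the wildtype ones of Tef and Upp2 at 36 h and that of Upp2 in Socs2-null at 36 h, and those of Nfil3 in Socs2-null liver. The counts for the pathway lists were computed under the reported setting alone. Signal over background limits Dbp in Socs2-null pools at 24 h, which has a bound alone, and Bhlhe41, which lay close to background on all arrays. It also limits Dbp in Socs2-null pools at 36 h and in wildtype pools at 24 h, which lay at or close to background.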
